A study of Homo sapiens with 24 samples.

Results

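The interferon gamma receptor chains IFNGR1 and IFNGR2, the Janus kinases JAK1 and JAK2, the transcription factors STAT2 and STAT3 and the inhibitors SOCS1, SOCS3 and CISH were described across 24 bulk RNA libraries of lymphoma cells kept with CAR T cells or with UTD cells. They were taken by gene symbol from the deposited count table and make up 9 of its 58735 genes. The libraries came from SU-DHL-4 and OCI-Ly18, established human diffuse large B cell lymphoma lines that carried GFP. Tazemetostat at 500 nM, which blocks the histone methyltransferase EZH2, or the vehicle DMSO was given first, for 72 h. The same drug or vehicle was kept while the tumour cells spent 48 h with CART19 cells, T cells that carry a chimeric antigen receptor, or with UTD cells. Viable GFP-positive cells were then sorted for RNA. In each line this gave the groups TAZ CART19, DMSO CART19, TAZ UTD and DMSO UTD, with 3 libraries each, 8 groups in all. All groups share the line's GFP label and contact with CART19 or UTD cells. The labels do not spell out UTD, name no group of tumour cells kept alone, and do not state whether the 3 libraries of a group came from separate cultures, so p-values measure the spread between libraries, which may be technical. Each line stands for itself only.

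Interferon gamma binds a receptor built of IFNGR1, the ligand-binding chain, and IFNGR2, the chain that completes the signalling complex. JAK1 sits on IFNGR1 and JAK2 on IFNGR2, and once activated they phosphorylate STAT proteins, which enter the nucleus and bind short DNA elements such as the gamma-activated site. STAT2 is best known as the partner of IRF9 in the complex formed after type I interferon, and STAT3 as the factor downstream of interleukins 6, 10 and 21. SOCS1, SOCS3 and CISH are feedback inhibitors that STAT proteins induce: SOCS1 blocks the kinases directly, SOCS3 binds cytokine receptors together with the kinases, and CISH acts mainly on receptors that signal through STAT5. In B cell lymphoma JAK and STAT genes and SOCS1 are recurrent targets of mutation.

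Libraries held 14783781 to 20148891 counts. Levels are CPM, in which counts are scaled to one common library total after TMM scaling. IFNGR1, IFNGR2, JAK1, JAK2, STAT2, STAT3 and SOCS1 passed the filter on low counts in every fit, which is 7 of the 9 genes. SOCS3 and CISH did not. Markers of B cells were detected for 6 of 6 genes in every group, at a summed 2267 to 4705 CPM, and the 5 monocyte and macrophage markers summed to at most 1.66 CPM. Folds below are log2 fold changes ± standard error with Benjamini-Hochberg adjusted p from edgeR's quasi-likelihood test over all genes, called under 0.05.

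SOCS1 and CISH are the members whose promoters hold interferon or STAT motifs in their first 250 bases, and they are shown with those of STAT2 and STAT3, which changed with CART19 cells but hold none. The sequences are from RefSeq (GRCh38.p14), on the gene's own strand, 5′ to 3′, and end at the RefSeq start or, where the annotated gene of the count table begins further upstream, just before that. Capitals mark a match to the interferon-stimulated response element core (GAAA, any 2 bases and a second GAAA) in SOCS1 and to the gamma-activated site TTCNNNGAA in CISH.
SOCS1 (chr16:11256205-11256454, minus strand) follows.
SOCS1: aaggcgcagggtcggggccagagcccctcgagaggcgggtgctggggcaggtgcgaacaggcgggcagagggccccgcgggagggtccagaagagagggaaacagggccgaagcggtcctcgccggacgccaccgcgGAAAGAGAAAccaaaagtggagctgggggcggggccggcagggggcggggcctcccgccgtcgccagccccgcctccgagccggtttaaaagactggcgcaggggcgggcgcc
STAT2 (chr12:56360156-56360357, minus strand) follows.
STAT2: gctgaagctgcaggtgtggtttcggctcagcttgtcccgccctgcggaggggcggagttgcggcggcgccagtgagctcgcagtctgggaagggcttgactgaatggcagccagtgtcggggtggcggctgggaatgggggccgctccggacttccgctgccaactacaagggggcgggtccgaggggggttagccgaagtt
STAT3 (chr17:42388569-42388692, minus strand) follows.
STAT3: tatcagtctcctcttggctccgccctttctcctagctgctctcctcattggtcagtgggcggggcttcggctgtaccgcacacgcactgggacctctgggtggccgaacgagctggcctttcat
CISH (chr3:50611832-50612024, minus strand) follows.
CISH: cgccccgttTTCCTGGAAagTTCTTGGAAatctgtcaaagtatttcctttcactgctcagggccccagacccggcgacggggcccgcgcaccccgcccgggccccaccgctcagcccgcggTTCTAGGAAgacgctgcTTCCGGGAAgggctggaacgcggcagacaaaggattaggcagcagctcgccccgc

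The SOCS1 match GAAAGAGAAA lies at -113 to -104, counted from the RefSeq start with -1 as the first base before it. The pattern TTCNNNGAA is the same on both strands, so each CISH match counts on both. The 4 CISH matches begin at -241, -230, -129 and -112, so they form a pair far from the start and a pair near it. Both motifs were searched on both strands, and the 2 motifs do not overlap each other in these windows. All 9 genes were matched to RefSeq by symbol, with 16 windows of 250 bases, and no other window of theirs held either motif. Of 35116 RefSeq windows of that length, 3.02% held the response element core and 6.57% the gamma-activated site. A match is a run of letters, and no binding was measured here.

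**Figure D1:**
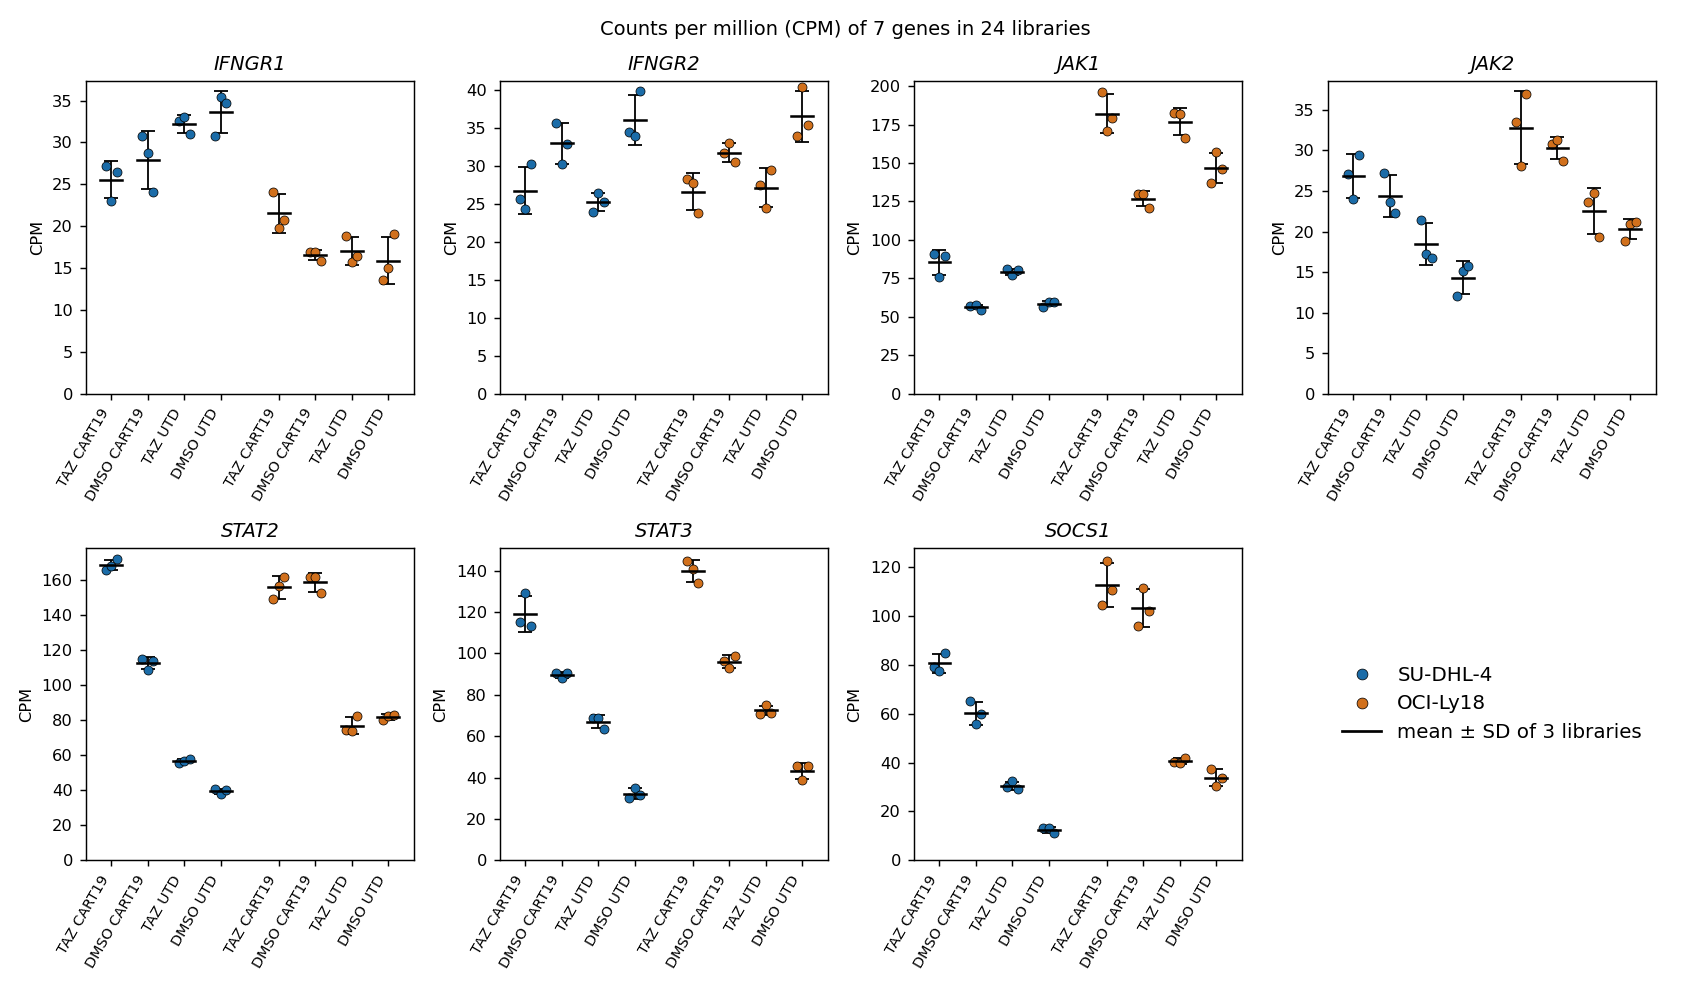
Levels of the 7 genes that passed the filter, in CPM on linear axes from 0, in each of the 24 libraries. Points are libraries, bars are group means and whiskers are SD over 3 libraries, with SU-DHL-4 left of OCI-Ly18. SOCS1, STAT2 and STAT3 are highest in the CART19 groups of both lines, and IFNGR1 is higher in all 12 SU-DHL-4 libraries than in 11 of 12 OCI-Ly18 libraries.

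Per kilobase of the gene model whose length the deposited table gives, SOCS1 had the highest level of the 7 genes in all 4 CART19 groups, with 44.9 ± 2.2 CPM per kilobase in SU-DHL-4 TAZ CART19 libraries and 33.5 ± 2.6 in DMSO CART19 libraries (SD, n = 3). In OCI-Ly18 these were 62.7 ± 5.0 and 57.4 ± 4.4 CPM per kilobase. JAK2 had the lowest level of the 7 in all 8 groups, between 2.32 ± 0.33 CPM per kilobase in SU-DHL-4 DMSO UTD libraries and 5.32 ± 0.73 in OCI-Ly18 TAZ CART19 libraries. In DMSO UTD libraries the leading gene differed by line: it was IFNGR2 in SU-DHL-4, at 12.2 ± 1.1 CPM per kilobase, and JAK1 in OCI-Ly18, at 23.2 ± 1.6. RMI2 and TMEM50B overlap SOCS1 and IFNGR2 on the other strand, with 121% and 111% as many counts over all libraries. The strand setting of the counting is not known and reads may be shared, so the ranks of SOCS1 and IFNGR2 are uncertain.

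**Figure D2:**
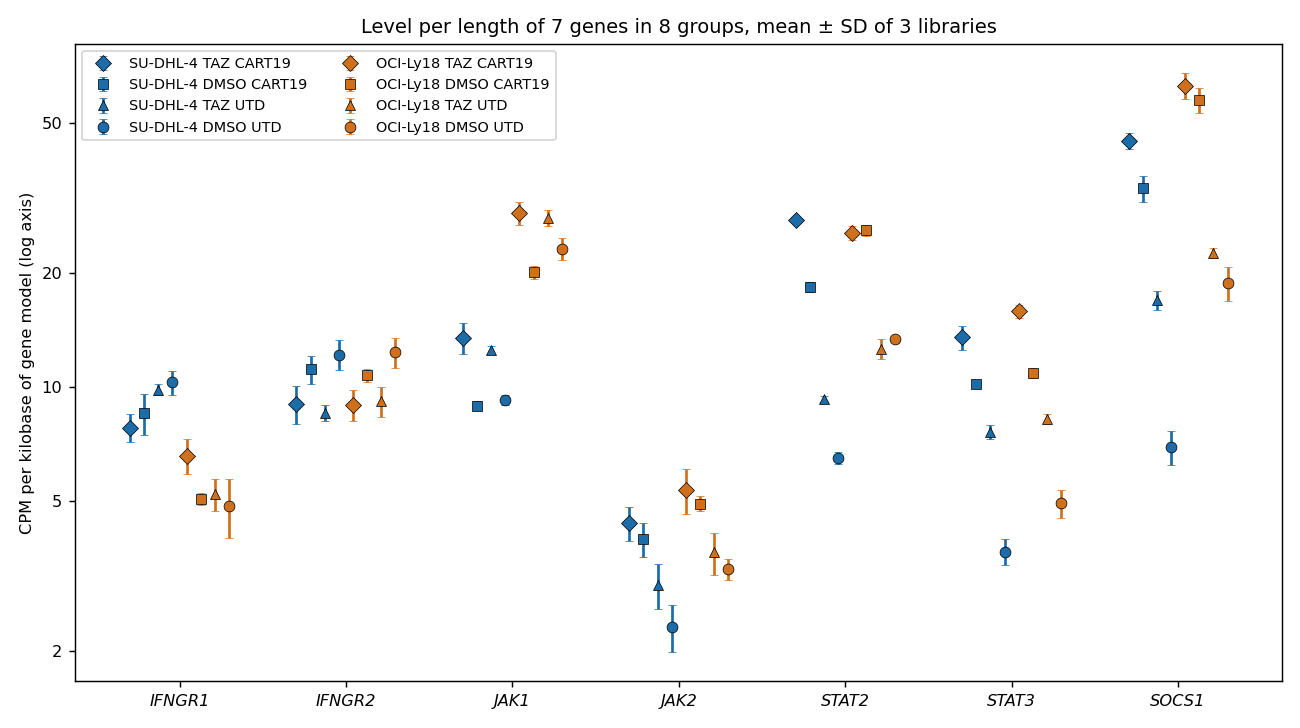
Mean level per kilobase of gene model of 7 genes in 8 groups, on a log axis, with SD over 3 libraries. SOCS1 in the CART19 groups is the highest point of each line and JAK2 in DMSO UTD libraries the lowest.

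In the DMSO UTD groups SU-DHL-4 carried more IFNGR1 and less of most downstream genes than OCI-Ly18. SU-DHL-4 was higher in 1 of the 7 genes, beside 29% of all 17766 genes tested, and lower in 5 of 7, beside 35.9%. IFNGR1 was higher in SU-DHL-4 (1.08 ± 0.12, adjusted p = 4.23e-11). SOCS1 (-1.45 ± 0.096, adjusted p = 8.39e-18), JAK1 (-1.33 ± 0.066, adjusted p = 3.23e-22) and STAT2 (-1.05 ± 0.060, adjusted p = 5.73e-20) were lower by more than 1 log2. JAK2 (-0.51 ± 0.13, adjusted p = 0.000513) and STAT3 (-0.43 ± 0.073, adjusted p = 1.83e-06) were lower by less, and IFNGR2 did not pass (-0.017 ± 0.099, adjusted p = 0.898). The median of the 7 genes was -0.51 log2 and that of all genes tested -0.096. Upper quartile scaling moved the median of all genes to -0.24, and relative to that the 6 differences kept their direction.

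CART19 cells, set against UTD cells, raised the same 4 genes by name in both lines and under both drug conditions: SOCS1, STAT2, STAT3 and JAK2. Here raised and lowered describe the RNA of the viable cells sorted after co-culture. The part of cell survival in these differences was not tested. In SU-DHL-4 under tazemetostat 4 of 7 genes rose, beside 6.66% of 14861 genes tested, and 1 fell, beside 7.86%. Under DMSO 4 of 7 rose in SU-DHL-4, beside 4.62% of all genes, and 0 fell, beside 3.18%. In OCI-Ly18 under tazemetostat 4 of 7 rose, beside 8.33% of 16467 genes tested, and 0 fell, beside 5.05%. Under DMSO 4 of 7 rose in OCI-Ly18, beside 6.27%, and 1 fell, beside 4.75%. Of all OCI-Ly18 genes called under tazemetostat 62.3% were higher, and 47.3% with upper quartile scaling. The median log2 fold change of the 7 genes was 0.55 and 0.78 in SU-DHL-4 under tazemetostat and DMSO, and 0.54 and 0.58 in OCI-Ly18. The median of all genes tested lay between -0.0079 and -0.0027 in these 4 comparisons.

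Of the T cell genes, IFNG and GZMB had more counts in the CART19 groups of both lines. IFNG, the gene of interferon gamma itself, gave 15, 47 and 15 counts in SU-DHL-4 TAZ CART19 libraries and 4, 7 and 5 counts in DMSO CART19 libraries, against 0, 5 and 0 counts in TAZ UTD libraries and 0 counts in each DMSO UTD library. In OCI-Ly18 it gave 23, 34 and 15 counts in TAZ CART19 libraries and 11, 18 and 14 in DMSO CART19 libraries, against 0 in each UTD library. GZMB, a granule protease of killer cells, gave 13, 19 and 7 counts in SU-DHL-4 TAZ CART19 and 19, 0 and 2 in DMSO CART19 libraries, 0, 10 and 9 in OCI-Ly18 TAZ CART19 and 11, 4 and 5 in DMSO CART19 libraries, and 0 in each UTD library. PRF1, the pore protein of killer cells, summed to 14, 11, 19 and 11 counts in the SU-DHL-4 groups TAZ CART19, DMSO CART19, TAZ UTD and DMSO UTD, and to 111, 113, 114 and 114 counts in those of OCI-Ly18. NKG7, a granule protein, summed to 45, 52, 55 and 42 counts in SU-DHL-4 and to 28, 5, 10 and 6 counts in OCI-Ly18, in the same order of groups. Among T cell surface genes, CD3E summed to 158, 118, 155 and 193 counts in SU-DHL-4 in that order and to at most 6 per group in OCI-Ly18. CD8A summed to at most 5 counts per group in SU-DHL-4 and to 45, 61, 63 and 39 in OCI-Ly18. CD3D summed to at most 4 counts per group, CD2 to at most 3, and CD7 was at 0 in all 8 groups. The whole list of 16 T cell genes was mostly TRAC RNA in SU-DHL-4, where TRBC2 averaged at most 0.0992 CPM in a group. In OCI-Ly18 the list was mostly TRBC2 and TRAC RNA, with TRBC2 at 59.5 to 74.2 CPM over its CART19 and UTD groups. The list summed to 27.3 to 27.9 CPM in SU-DHL-4 TAZ CART19 libraries and 29 to 30.95 CPM in its TAZ UTD libraries. In that line it summed to 44.7 to 47.6 CPM in DMSO CART19 libraries and 45.7 to 45.9 CPM in DMSO UTD libraries. In OCI-Ly18 the sums were 80.2 to 89.6 CPM in TAZ CART19 and 100.9 to 106.8 CPM in TAZ UTD libraries, and 81.6 to 88.6 CPM in DMSO CART19 and 91.8 to 99.4 CPM in DMSO UTD libraries. Of the 16 genes, 12 and 8 had counts in the SU-DHL-4 TAZ CART19 and DMSO CART19 groups, against 9 and 4 in TAZ UTD and DMSO UTD groups. In OCI-Ly18, 13 and 12 had counts with CART19 cells, against 6 and 9 with UTD cells. Of the 5 monocyte and macrophage markers, CSF1R summed to 48 and 26 counts in the SU-DHL-4 TAZ CART19 and DMSO CART19 groups, against 7 and 6 in TAZ UTD and DMSO UTD, and to 45 and 21 counts, against 6 and 3, in OCI-Ly18. The list of 5 summed to 1.18 to 1.66 CPM in SU-DHL-4 TAZ CART19 libraries against 0.114 to 0.386 CPM in TAZ UTD libraries, and to 0.442 to 0.907 CPM in DMSO CART19 against 0 to 0.693 CPM in DMSO UTD libraries. In OCI-Ly18 it summed to 0.977 to 1.29 CPM in TAZ CART19 against 0.241 to 0.685 CPM in TAZ UTD libraries, and to 0.240 to 1.10 CPM in DMSO CART19 against 0.168 to 1.18 CPM in DMSO UTD libraries. CD163 had at most 1 count in a group. The part of T cell or monocyte RNA in the results below was not tested, and in bulk RNA fewer cells of a type and less RNA per cell cannot be told apart.

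Tazemetostat, set against DMSO, raised STAT3 and JAK1 in both lines and with both CART19 and UTD cells. The drug raised SOCS1 and STAT2 in SU-DHL-4 with both. In OCI-Ly18 SOCS1 was called higher only with UTD cells, and STAT2 with neither. With CART19 cells 4 of 7 genes rose in SU-DHL-4, beside 16.1% of all genes tested, and 1 fell, beside 18.7%. With UTD cells 5 of 7 rose, beside 17.2%, and 1 fell, beside 18.3%. In OCI-Ly18 with CART19 cells 3 of 7 rose, beside 11%, and 0 fell, beside 10.6%. With UTD cells 3 of 7 rose in OCI-Ly18, beside 11.6%, and 1 fell, beside 12.7%. Of all SU-DHL-4 genes called, 46.4% were higher with CART19 cells and 48.5% with UTD cells, and upper quartile scaling made both shares 64.4%. The median of the 7 genes was 0.38 and 0.41 log2 in SU-DHL-4 with CART19 and UTD cells, and 0.12 and 0.14 log2 in OCI-Ly18, against 0.0034 to 0.016 over all genes tested. The tazemetostat and CART19 comparisons of a line share libraries, among them the DMSO UTD controls, so they are given side by side.

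**Figure D3:**
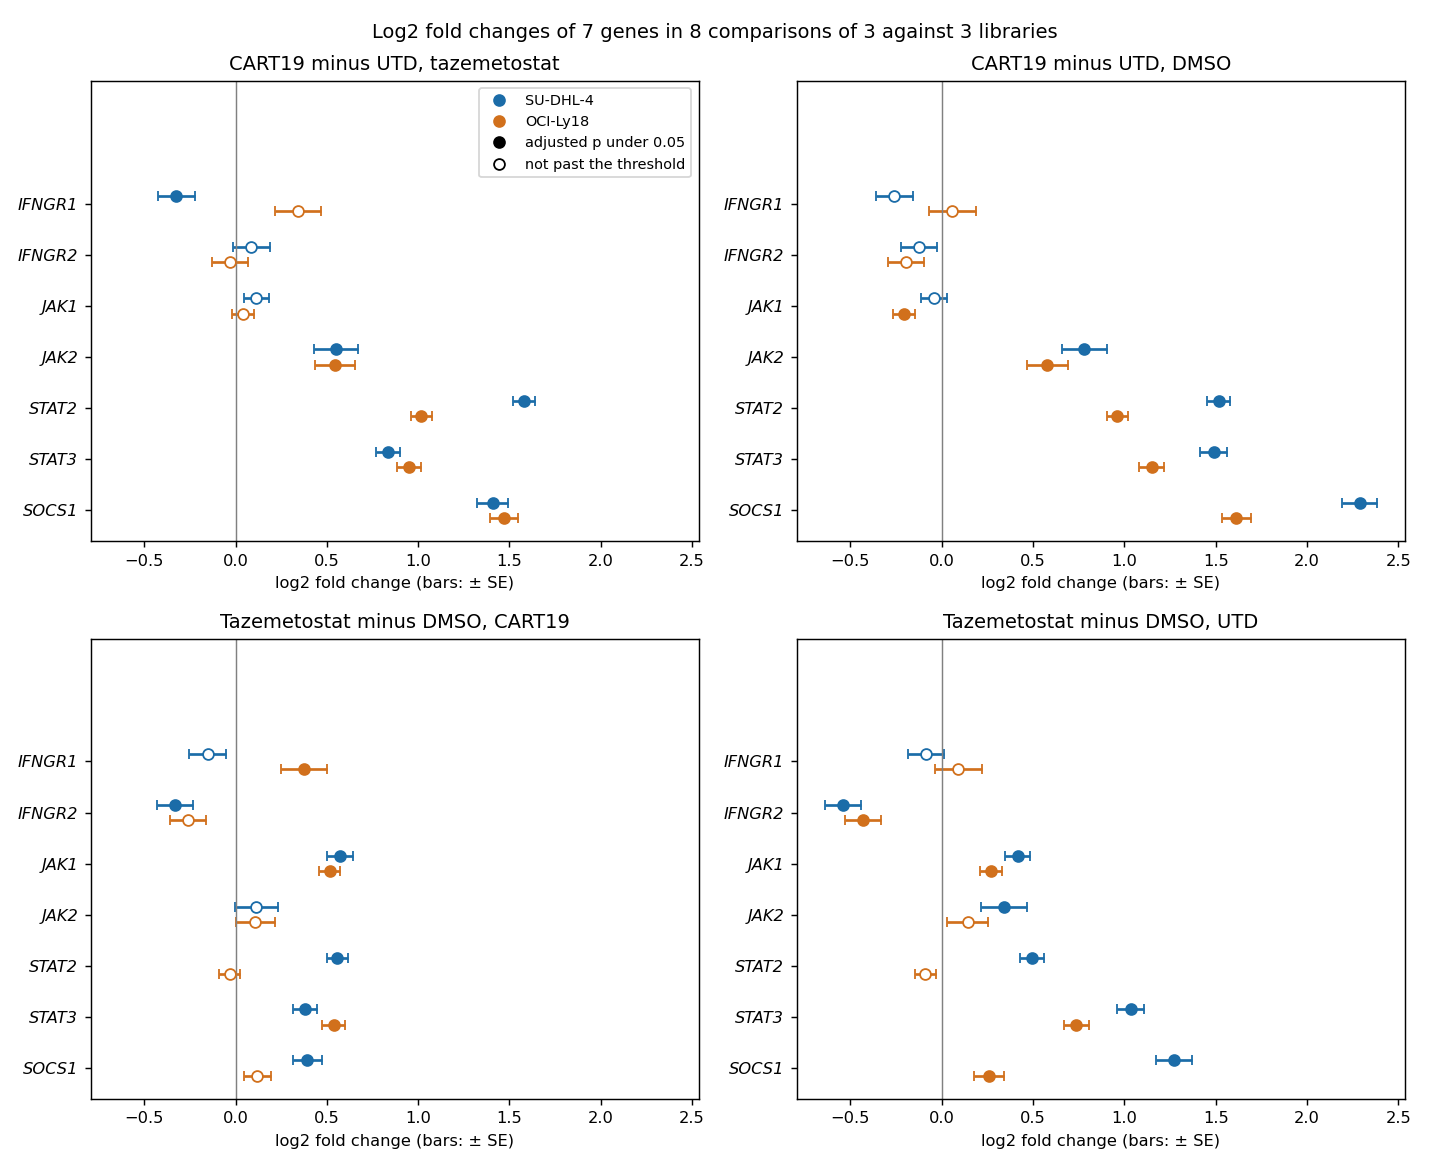
Log2 fold changes (x axis, bars ± SE) of 7 genes (y axis) for CART19 minus UTD cells (upper panels) and tazemetostat minus DMSO (lower panels), with SU-DHL-4 above OCI-Ly18 for each gene and filled points for an adjusted p under 0.05. JAK2, STAT2, STAT3 and SOCS1 have filled points right of 0 in both upper panels, and 3 of the 4 IFNGR2 points in the lower panels are filled and left of 0.

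IFNGR1 (chromosome 6, 137197484 to 137219449, minus strand, hg38), the ligand-binding chain, differed more by line than by treatment. In SU-DHL-4 it stood at 27.2, 23.1 and 26.4 CPM in TAZ CART19 libraries, 30.8, 28.8 and 24.1 CPM in DMSO CART19 libraries, 32.6, 33 and 31 CPM in TAZ UTD libraries and 30.8, 35.5 and 34.8 CPM in DMSO UTD libraries. In OCI-Ly18 it stood at 24.1, 19.7 and 20.7 CPM in TAZ CART19 libraries, 16.9, 16.9 and 15.8 CPM in DMSO CART19 libraries, 18.9, 15.7 and 16.4 CPM in TAZ UTD libraries and 13.6, 15 and 19 CPM in DMSO UTD libraries. The SU-DHL-4 UTD groups were the highest and overlapped each other, the SU-DHL-4 CART19 groups came next, and of the OCI-Ly18 groups TAZ CART19 was the highest, reaching into the range of SU-DHL-4 TAZ CART19. CART19 cells lowered IFNGR1 in SU-DHL-4 under tazemetostat (-0.32 ± 0.10, adjusted p = 0.0216), while under DMSO it did not pass (-0.26 ± 0.10, adjusted p = 0.115). The call was lost without SU-DHL-4 TAZ UTD replicate 1 (log2 -0.30, adjusted p = 0.0898), TAZ UTD replicate 2 (log2 -0.30, adjusted p = 0.0907) or TAZ CART19 replicate 2 (log2 -0.24, adjusted p = 0.124). TAZ CART19 replicate 2 had the most IFNG counts, 47, and TAZ UTD replicates 1 and 2 had 0 and 5. A link between IFNG counts and IFNGR1 was not tested. In OCI-Ly18 tazemetostat raised IFNGR1 with CART19 cells (0.38 ± 0.13, adjusted p = 0.0292), a call lost without DMSO CART19 replicate 1 (log2 0.39, adjusted p = 0.0677), 2 (log2 0.39, adjusted p = 0.0649) or 3 (log2 0.34, adjusted p = 0.109), or TAZ CART19 replicate 1 (log2 0.28, adjusted p = 0.164). It did not pass with UTD cells (0.092 ± 0.13, adjusted p = 0.67), nor with CART19 cells under tazemetostat (0.34 ± 0.12, adjusted p = 0.0663) or DMSO (0.058 ± 0.13, adjusted p = 0.851). The CART19 comparison under tazemetostat passed with all 24 libraries in one fit (log2 0.34, adjusted p = 0.0443) and without OCI-Ly18 TAZ CART19 replicate 2 (log2 0.40, adjusted p = 0.0342). In SU-DHL-4 the drug gave -0.15 ± 0.10 with CART19 and -0.088 ± 0.099 with UTD cells, neither past the threshold.

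IFNGR2 (chromosome 21, 33402896 to 33479348, plus strand), the signalling chain, was the one gene of the 7 tested that was called lower with tazemetostat. SU-DHL-4 gave 25.6, 24.3 and 30.2 CPM in TAZ CART19 libraries, 35.6, 30.2 and 32.9 CPM in DMSO CART19 libraries, 24, 26.4 and 25.3 CPM in TAZ UTD libraries and 34.4, 33.9 and 39.8 CPM in DMSO UTD libraries. OCI-Ly18 gave 28.2, 27.7 and 23.8 CPM in TAZ CART19 libraries, 31.7, 33 and 30.5 CPM in DMSO CART19 libraries, 27.5, 24.4 and 29.5 CPM in TAZ UTD libraries and 33.9, 40.3 and 35.3 CPM in DMSO UTD libraries. Each line's TAZ libraries lay below its DMSO libraries with either CART19 or UTD cells, without overlap, although the highest TAZ CART19 and the lowest DMSO CART19 library of SU-DHL-4 nearly touched, and the 4 TAZ groups of both lines overlapped one another. Tazemetostat lowered IFNGR2 with UTD cells in SU-DHL-4 (-0.54 ± 0.10, adjusted p = 2.66e-05) and in OCI-Ly18 (-0.43 ± 0.099, adjusted p = 0.00135). With CART19 cells it fell in SU-DHL-4 (-0.33 ± 0.10, adjusted p = 0.00802), a call lost with upper quartile scaling (log2 -0.25, adjusted p = 0.0529), without DMSO CART19 replicate 1 (log2 -0.26, adjusted p = 0.08) or without TAZ CART19 replicate 2 (log2 -0.26, adjusted p = 0.0516). In OCI-Ly18 with CART19 cells it did not pass (-0.26 ± 0.099, adjusted p = 0.0548), but it did without TAZ CART19 replicate 1 (log2 -0.31, adjusted p = 0.0462) or 2 (log2 -0.30, adjusted p = 0.0434). None of the 4 CART19 comparisons passed for IFNGR2, with log2 fold changes of 0.086 ± 0.10 and -0.12 ± 0.099 in SU-DHL-4 under tazemetostat and DMSO, and -0.029 ± 0.10 and -0.20 ± 0.098 in OCI-Ly18. TMEM50B overlaps IFNGR2 on the other strand and no source used here gives the strand setting of the counting, so their reads may be shared. TMEM50B did not pass with tazemetostat and UTD cells in SU-DHL-4 (0.17 ± 0.093, adjusted p = 0.144) or OCI-Ly18 (-0.043 ± 0.10, adjusted p = 0.819).

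JAK1 (chromosome 1, 64833229 to 64966504, minus strand), the kinase of the IFNGR1 chain that also serves many other cytokine receptors, rose with tazemetostat and was not called higher with CART19 cells. In SU-DHL-4 it stood at 90.8, 75.9 and 89.2 CPM in TAZ CART19 libraries, 56.9, 57.5 and 54.5 CPM in DMSO CART19 libraries, 80.7, 77 and 80.2 CPM in TAZ UTD libraries and 56.4, 59.4 and 59.6 CPM in DMSO UTD libraries. In OCI-Ly18 it stood at 196, 171 and 179 CPM in TAZ CART19 libraries, 129.7, 129.9 and 121 CPM in DMSO CART19 libraries, 183, 182 and 167 CPM in TAZ UTD libraries and 137, 157 and 146 CPM in DMSO UTD libraries. All OCI-Ly18 libraries were above all SU-DHL-4 libraries, and within a line the TAZ groups lay above the DMSO groups without overlap. Tazemetostat raised JAK1 with CART19 cells in SU-DHL-4 (0.57 ± 0.071, adjusted p = 9.99e-09) and OCI-Ly18 (0.51 ± 0.060, adjusted p = 8.73e-08), and with UTD cells in SU-DHL-4 (0.41 ± 0.071, adjusted p = 6.71e-06) and OCI-Ly18 (0.27 ± 0.060, adjusted p = 0.00101). CART19 cells lowered it in OCI-Ly18 under DMSO (-0.20 ± 0.060, adjusted p = 0.0229), and this call was lost without DMSO UTD replicate 2 (log2 -0.16, adjusted p = 0.192), DMSO UTD replicate 3 (log2 -0.21, adjusted p = 0.074) or DMSO CART19 replicate 3 (log2 -0.17, adjusted p = 0.145). The other 3 CART19 comparisons gave 0.11 ± 0.069 and -0.044 ± 0.072 in SU-DHL-4 under tazemetostat and DMSO and 0.042 ± 0.059 in OCI-Ly18 under tazemetostat, none past the threshold. Without SU-DHL-4 TAZ CART19 replicate 2, the SU-DHL-4 comparison under tazemetostat passed (log2 0.20, adjusted p = 0.0362). RAVER2, on the other strand of the locus, had 13.5% as many counts as JAK1 over all libraries and was near 0 in SU-DHL-4. Its share was larger in OCI-Ly18, with means of 35.1 CPM in TAZ UTD and 25.8 CPM in DMSO UTD libraries, beside 177 and 147 CPM for JAK1. In OCI-Ly18 RAVER2 also rose with tazemetostat, with CART19 cells (0.48 ± 0.10, adjusted p = 0.000768) and with UTD cells (0.44 ± 0.10, adjusted p = 0.00168).

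JAK2 (chromosome 9, 4984390 to 5128183, plus strand), the kinase of the IFNGR2 chain, rose with CART19 cells. Its levels in SU-DHL-4 were 27.1, 24.1 and 29.5 CPM in TAZ CART19 libraries, 27.3, 23.7 and 22.2 CPM in DMSO CART19 libraries, 21.4, 17.2 and 16.8 CPM in TAZ UTD libraries and 12, 15.1 and 15.8 CPM in DMSO UTD libraries. Its levels in OCI-Ly18 were 33.5, 28.1 and 36.9 CPM in TAZ CART19 libraries, 30.8, 31.3 and 28.8 CPM in DMSO CART19 libraries, 23.6, 24.7 and 19.3 CPM in TAZ UTD libraries and 18.9, 21 and 21.2 CPM in DMSO UTD libraries. The CART19 libraries of a line were above its UTD libraries under the same drug condition, without overlap, and across the 8 groups each neighbour in the order of means overlapped the next except SU-DHL-4 DMSO UTD, which was the lowest on its own. CART19 cells raised JAK2 under tazemetostat in SU-DHL-4 (0.55 ± 0.12, adjusted p = 0.000742) and OCI-Ly18 (0.54 ± 0.11, adjusted p = 0.000469), and under DMSO in SU-DHL-4 (0.78 ± 0.12, adjusted p = 6.32e-06) and OCI-Ly18 (0.58 ± 0.11, adjusted p = 0.000327). Tazemetostat raised JAK2 with UTD cells in SU-DHL-4 (0.34 ± 0.13, adjusted p = 0.0304), a call lost with DESeq2 (log2 0.35, adjusted p = 0.0622), without DMSO UTD replicate 1 (log2 0.23, adjusted p = 0.216) or without TAZ UTD replicate 1 (log2 0.22, adjusted p = 0.25). It gave 0.11 ± 0.12 with CART19 cells in SU-DHL-4, and 0.11 ± 0.11 with CART19 and 0.14 ± 0.11 with UTD cells in OCI-Ly18, none past the threshold.

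STAT2 (chromosome 12, 56341597 to 56360155, minus strand) rose with CART19 cells in both lines and with tazemetostat in SU-DHL-4. In SU-DHL-4 it stood at 166, 168 and 172 CPM in TAZ CART19 libraries, 115, 109 and 114 CPM in DMSO CART19 libraries, 55.7, 56.9 and 57.7 CPM in TAZ UTD libraries and 40.8, 38 and 39.9 CPM in DMSO UTD libraries. The 4 SU-DHL-4 groups did not overlap one another, and TAZ CART19 was the highest of all 8 groups. In OCI-Ly18 it stood at 149, 157 and 162 CPM in TAZ CART19 libraries, 162, 162 and 153 CPM in DMSO CART19 libraries, 74.6, 74 and 82.3 CPM in TAZ UTD libraries and 80.04, 82.2 and 83 CPM in DMSO UTD libraries. There the TAZ and DMSO groups overlapped with either CART19 or UTD cells, and only the CART19 groups stood apart from the UTD groups. CART19 cells raised STAT2 under tazemetostat in SU-DHL-4 (1.58 ± 0.061, adjusted p = 5.80e-26) and OCI-Ly18 (1.02 ± 0.059, adjusted p = 3.72e-15), and under DMSO in SU-DHL-4 (1.52 ± 0.064, adjusted p = 1.53e-24) and OCI-Ly18 (0.96 ± 0.059, adjusted p = 1.80e-14). Tazemetostat raised it in SU-DHL-4 with CART19 cells (0.56 ± 0.058, adjusted p = 1.62e-10) and with UTD cells (0.49 ± 0.065, adjusted p = 3.77e-08). In OCI-Ly18 it did not pass with CART19 cells (-0.033 ± 0.057, adjusted p = 0.742) or UTD cells (-0.089 ± 0.060, adjusted p = 0.313).

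STAT3 (chromosome 17, 42313324 to 42388568, minus strand) was called higher in all 8 comparisons of drug or co-cultured cells. The SU-DHL-4 levels were 115, 129 and 113 CPM in TAZ CART19 libraries, 90.7, 88.1 and 90.6 CPM in DMSO CART19 libraries, 68.9, 68.7 and 63.7 CPM in TAZ UTD libraries and 30.2, 35 and 31.6 CPM in DMSO UTD libraries. The OCI-Ly18 levels were 145, 141 and 134 CPM in TAZ CART19 libraries, 96.3, 92.9 and 98.9 CPM in DMSO CART19 libraries, 70.9, 75.1 and 71.3 CPM in TAZ UTD libraries and 45.4, 38.9 and 45.6 CPM in DMSO UTD libraries. In both lines the order was TAZ CART19, DMSO CART19, TAZ UTD and DMSO UTD, high to low, and no 2 neighbouring groups of the 8 overlapped. CART19 cells raised STAT3 under tazemetostat in SU-DHL-4 (0.84 ± 0.068, adjusted p = 8.74e-14) and OCI-Ly18 (0.95 ± 0.065, adjusted p = 3.42e-13), and under DMSO in SU-DHL-4 (1.49 ± 0.073, adjusted p = 7.55e-22) and OCI-Ly18 (1.15 ± 0.068, adjusted p = 7.88e-15). Tazemetostat raised it with CART19 cells in SU-DHL-4 (0.38 ± 0.067, adjusted p = 1.07e-05) and OCI-Ly18 (0.54 ± 0.064, adjusted p = 1.47e-07), and with UTD cells in SU-DHL-4 (1.03 ± 0.073, adjusted p = 1.99e-15) and OCI-Ly18 (0.74 ± 0.069, adjusted p = 1.22e-09). No left-out library changed any of these 8 calls.

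SOCS1 (chromosome 16, 11254405 to 11256200, minus strand), the inhibitor whose promoter window holds the response element core GAAAGAGAAA shown above, had the largest CART19 response of the 7 genes under DMSO. SU-DHL-4 gave 79.1, 77.6 and 85.1 CPM in TAZ CART19 libraries, 65.1, 55.7 and 59.7 CPM in DMSO CART19 libraries, 29.95, 32.4 and 29.1 CPM in TAZ UTD libraries and 13.1, 13.2 and 11 CPM in DMSO UTD libraries. The 4 SU-DHL-4 groups did not overlap, and DMSO UTD was the lowest of all 8. OCI-Ly18 gave 105, 122 and 111 CPM in TAZ CART19 libraries, 95.9, 112 and 102 CPM in DMSO CART19 libraries, 40.2, 39.7 and 41.9 CPM in TAZ UTD libraries and 37.3, 30.5 and 33.5 CPM in DMSO UTD libraries. There the 2 CART19 groups overlapped each other, and lay above both UTD groups. CART19 cells raised SOCS1 under DMSO 4.89-fold in SU-DHL-4 (2.29 ± 0.095, adjusted p = 1.03e-24) and 3.06-fold in OCI-Ly18 (1.61 ± 0.080, adjusted p = 5.24e-17). Under tazemetostat the rise was 2.66-fold in SU-DHL-4 (1.41 ± 0.085, adjusted p = 2.39e-18) and 2.77-fold in OCI-Ly18 (1.47 ± 0.078, adjusted p = 3.20e-16). Tazemetostat with UTD cells raised SOCS1 2.42-fold in SU-DHL-4 (1.27 ± 0.098, adjusted p = 2.86e-14), and 1.31-fold with CART19 cells (0.39 ± 0.081, adjusted p = 0.000124). In OCI-Ly18 it rose with UTD cells (0.26 ± 0.082, adjusted p = 0.0186), a call lost without DMSO UTD replicate 2 (log2 0.19, adjusted p = 0.147), DMSO UTD replicate 3 (log2 0.25, adjusted p = 0.0618) or TAZ UTD replicate 3 (log2 0.24, adjusted p = 0.0684), and it did not pass with CART19 cells (0.12 ± 0.074, adjusted p = 0.272). SOCS1 lies inside RMI2 on the other strand, whose counts may be mixed with its own. RMI2 also rose with CART19 cells under DMSO, in SU-DHL-4 (0.25 ± 0.078, adjusted p = 0.0368) and OCI-Ly18 (0.29 ± 0.067, adjusted p = 0.00313), and fell with tazemetostat and UTD cells in SU-DHL-4 (-0.27 ± 0.079, adjusted p = 0.00653) and OCI-Ly18 (-0.23 ± 0.068, adjusted p = 0.0113).

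SOCS3 (chromosome 17, 78356778 to 78360077, minus strand) and CISH (chromosome 3, 50606490 to 50611831, minus strand) were near absent at this depth. SOCS3 had 8 counts in 1 library, of SU-DHL-4 DMSO CART19, and 0 in the other 23. CISH had 34 counts in 11 of 24 libraries and at most 11 in one, an SU-DHL-4 TAZ UTD library. The level that a count of 0 allows, 3 counts, was 0.149 to 0.203 CPM per library, for counting error only. No fold is given for either gene. The 4 gamma-activated site matches shown for CISH thus stand in a promoter whose gene was hardly counted in any group. MAPKAPK3 overlaps CISH on the other strand, so even those reads may be shared.

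As a ratio, the CART19 effect on SOCS1 and STAT3 was smaller under tazemetostat than under DMSO in SU-DHL-4. From UTD to CART19 cells mean SOCS1 went from 30.5 to 80.6 CPM under tazemetostat and from 12.4 to 60.2 CPM under DMSO. Mean STAT3 went from 67.1 to 119 CPM under tazemetostat and from 32.3 to 89.8 CPM under DMSO. The difference of the log2 fold changes, tazemetostat minus DMSO, was -0.88 ± 0.13, adjusted p = 3.14e-05 for SOCS1 and -0.65 ± 0.099, adjusted p = 5.88e-05 for STAT3. Thus 0 of 7 genes were higher, beside 0.269% of all genes tested, and 2 were lower, beside 0.626%. The same contrast equals the tazemetostat effect with CART19 cells minus that with UTD cells, and both genes were at a higher level under tazemetostat with either CART19 or UTD cells. Over all genes 30.1% of the 133 calls were higher, against 57.1% of 70 without SU-DHL-4 DMSO UTD replicate 1, and the number called ran between 37 without TAZ UTD replicate 3 and 414 without TAZ CART19 replicate 2. For the 2 genes, leaving out each of the 12 libraries in turn gave -0.93 to -0.77 for SOCS1 and -0.71 to -0.58 for STAT3, all past the threshold. STAT2 gave 0.062 ± 0.088, adjusted p = 0.865 and JAK2 -0.23 ± 0.17, adjusted p = 0.686 in SU-DHL-4, neither past the threshold. In OCI-Ly18 0 of 7 genes were higher, beside 0.334% of all genes, and 0 lower, beside 0.085%, in edgeR's test. DESeq2 also called 0, while JAK1 and STAT3 had unadjusted p of 0.00645 and 0.0406. SOCS1 gave -0.14 ± 0.11, adjusted p = 0.608 and STAT3 -0.20 ± 0.094, adjusted p = 0.334 there. Of all OCI-Ly18 genes called in this contrast 79.7% were higher, and 66.2% with upper quartile scaling; the number called ran between 15 without OCI-Ly18 DMSO CART19 replicate 3 and 982 without TAZ CART19 replicate 2. JAK1 passed without OCI-Ly18 TAZ CART19 replicate 2 (log2 0.29, adjusted p = 0.0251).

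The lines were compared in one fit of all 24 libraries, as the SU-DHL-4 effect minus the OCI-Ly18 effect. For CART19 under tazemetostat 1 of 7 genes was higher, beside 1.37% of 17766 genes tested, and 1 lower, beside 4.59%: STAT2 responded more in SU-DHL-4 (0.55 ± 0.079, adjusted p = 3.02e-06) and the difference was negative for IFNGR1 (-0.67 ± 0.16, adjusted p = 0.00584). For CART19 under DMSO 2 of 7 were higher, beside 1.19%, and 0 lower, beside 1.63%, namely SOCS1 (0.67 ± 0.12, adjusted p = 0.000444) and STAT2 (0.55 ± 0.081, adjusted p = 9.27e-06). STAT3 missed the threshold there (0.33 ± 0.099, adjusted p = 0.0546) and passed it with RLE scaling (log2 0.35, adjusted p = 0.0446), upper quartile scaling (log2 0.35, adjusted p = 0.0447), the stricter filter (log2 0.36, adjusted p = 0.0291) and DESeq2 (log2 0.35, adjusted p = 0.0181), and without any of 13 of the 24 libraries (log2 0.34 to 0.42, adjusted p of 0.0116 to 0.0464).

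For tazemetostat with CART19 cells 1 of 7 was higher, beside 5.92%, and 1 lower, beside 4.2%. STAT2 responded more in SU-DHL-4 (0.61 ± 0.077, adjusted p = 1.21e-07) and the difference was negative for IFNGR1 (-0.51 ± 0.16, adjusted p = 0.0367), the IFNGR1 call being lost with upper quartile scaling (log2 -0.46, adjusted p = 0.0634) and with a block for the authors' replicate number (log2 -0.50, adjusted p = 0.0564), and when OCI-Ly18 TAZ CART19 replicate 1 (log2 -0.48, adjusted p = 0.0639), SU-DHL-4 DMSO CART19 replicate 1 (log2 -0.43, adjusted p = 0.125) or 2 (log2 -0.48, adjusted p = 0.0833) or SU-DHL-4 TAZ CART19 replicate 2 (log2 -0.44, adjusted p = 0.105) was left out. SOCS1 did not pass (0.30 ± 0.11, adjusted p = 0.0788), but did with upper quartile scaling (log2 0.34, adjusted p = 0.0379) and without SU-DHL-4 DMSO CART19 replicate 1 (log2 0.35, adjusted p = 0.0478). For tazemetostat with UTD cells 3 of 7 were higher, beside 6.9%, and 0 lower, beside 3.66%. These were SOCS1 (1.03 ± 0.13, adjusted p = 6.29e-08), STAT2 (0.61 ± 0.084, adjusted p = 5.77e-07) and STAT3 (0.32 ± 0.10, adjusted p = 0.0305). The STAT3 call was lost without the filter on low counts (log2 0.28, adjusted p = 0.119), with the stricter filter (log2 0.28, adjusted p = 0.0571) and when any of 17 of the 24 libraries was left out, at 0.23 to 0.31 log2 and adjusted p of 0.0584 to 0.2. The libraries without which it held were OCI-Ly18 DMSO UTD replicate 2, SU-DHL-4 DMSO UTD replicate 2, TAZ UTD replicate 3, TAZ CART19 replicate 2 and all 3 DMSO CART19 replicates. The median of the 7 genes was 0.025 and 0.22 log2 for tazemetostat with CART19 and UTD cells, and 0.00047 and 0.20 for CART19 under tazemetostat and DMSO, beside 0.034, 0.038, -0.0089 and -0.014 over all genes tested. Of all genes called, 58.5% were higher for tazemetostat with CART19 cells (47.6% with RLE, 69.7% with upper quartile scaling, 45.2% with DESeq2), and 23% for CART19 under tazemetostat (39.1% with upper quartile scaling).

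**Figure D4:**
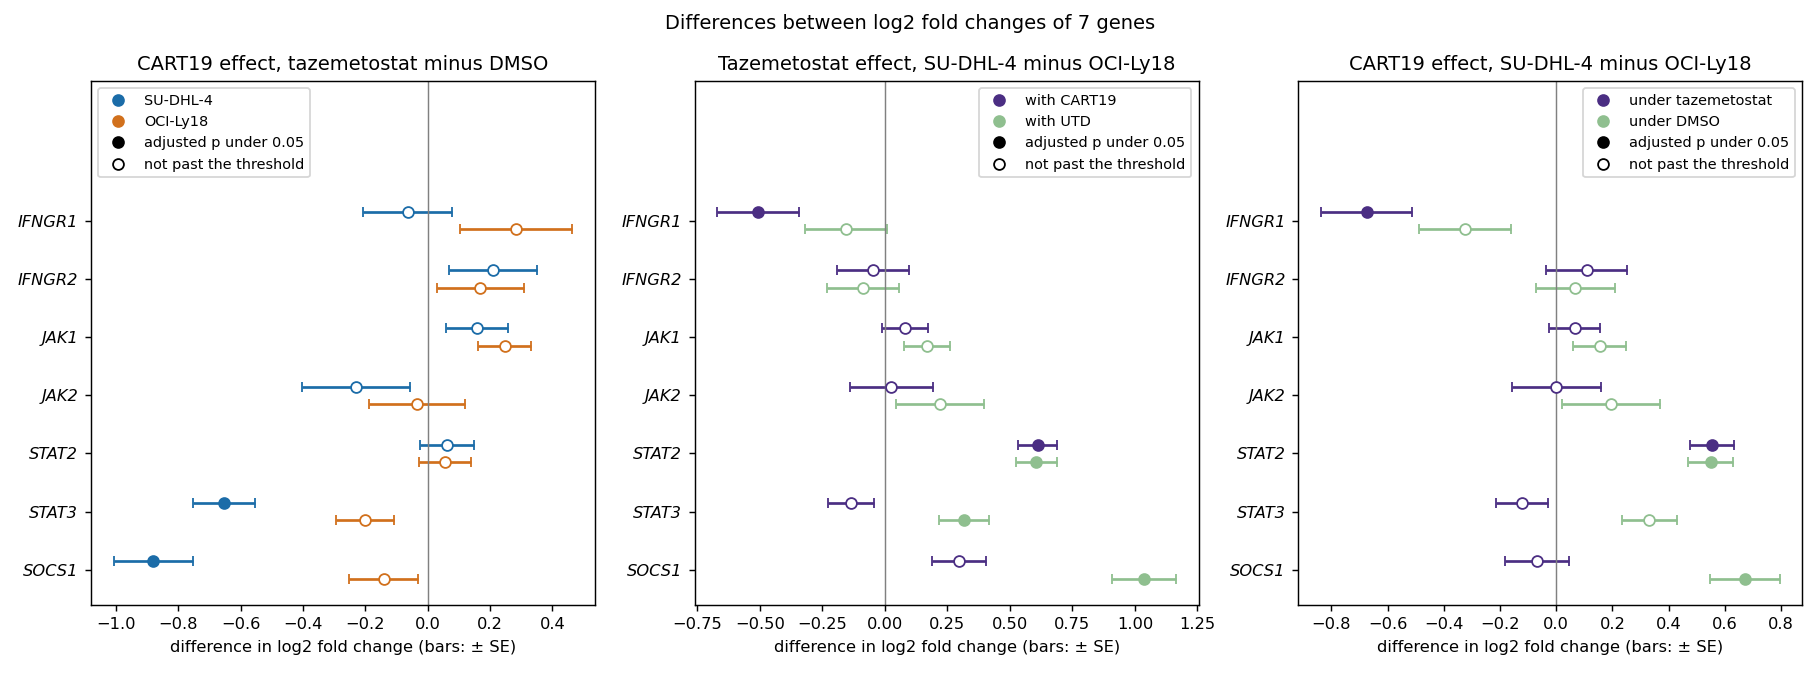
Differences between log2 fold changes (x axis, bars ± SE) of 7 genes (y axis): the CART19 effect under tazemetostat minus that under DMSO in each line (left), and the tazemetostat (middle) and CART19 (right) effects in SU-DHL-4 minus those in OCI-Ly18. The SU-DHL-4 points of STAT3 and SOCS1 are filled and left of 0 in the left panel, at -0.65 and -0.88, and STAT2 is filled and right of 0 in the middle and right panels, at 0.55 to 0.61.

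Across the 24 libraries, with each line's mean subtracted, SOCS1, STAT2, STAT3 and JAK2 varied together. Pearson's r of log2 CPM was 0.963 between SOCS1 and STAT2, 0.95 between SOCS1 and STAT3, 0.907 between SOCS1 and JAK2, 0.888 between JAK2 and STAT2, 0.886 between JAK2 and STAT3 and 0.877 between STAT2 and STAT3. IFNGR2 and JAK1, which tazemetostat moved in opposite directions, gave -0.689, and IFNGR1 gave between -0.302 and 0.187 with the other 6 genes. The libraries share scaling and a similar depth, and fall into groups by treatment, so these values describe the pattern only.

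The protein coding genes of most similar pattern were ranked by the same r over 24 libraries. For SOCS1 these were RNF213 (0.975), HLA-DRA (0.971), a chain of an MHC class II molecule, and UBA7 (0.971), and for STAT2 RARRES3 (0.985), HLA-DRB5 (0.983) and UBA7 (0.982). For STAT3 they were CIITA (0.976), the master activator of MHC class II genes, RNF213 (0.968) and HLA-DMB (0.955). For JAK2 they were TRIM44 (0.938), RNF213 (0.916) and MX1 (0.915). IFNGR2 came closest to CDK1 (0.907), H2AFY (0.905) and ANLN (0.899), of which CDK1 and ANLN act in cell division. JAK1 came closest to NAB1 (0.944), TFDP2 (0.94) and FAM214A (0.939). IFNGR1 had no gene above 0.78, which it reached with LRPPRC, followed by SEC31A (0.776) and SETD7 (0.763). HLA-DRB5 shares sequence with other HLA-DRB genes, so its counts are uncertain.

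The other JAK and STAT genes of the table, 7 in number, moved like the 4 genes above in part. With CART19 cells, beside the shares of all genes given above, 4 of 7 tested in OCI-Ly18 rose and 1 fell under tazemetostat (median 0.70), and 5 rose and 1 fell under DMSO (median 1.11). In SU-DHL-4 3 of 6 tested rose and 1 fell under tazemetostat (median 0.29), and 4 rose and 1 fell under DMSO (median 0.61). STAT5A, a target of interleukin 2 family signals, rose under DMSO in SU-DHL-4 (0.93 ± 0.18, adjusted p = 0.000206) and OCI-Ly18 (1.61 ± 0.074, adjusted p = 8.51e-18), and JAK3, the kinase of the common gamma chain, in SU-DHL-4 (1.71 ± 0.27, adjusted p = 7.45e-06) and OCI-Ly18 (1.11 ± 0.16, adjusted p = 3.31e-06). STAT5B fell in SU-DHL-4 (-0.29 ± 0.055, adjusted p = 0.000121) and OCI-Ly18 (-0.26 ± 0.052, adjusted p = 0.000578), so the pair of STAT5 genes moved in opposite directions. With tazemetostat and UTD cells, again beside the shares above, 3 of 6 tested rose in SU-DHL-4 (median 0.15) and 3 of 7 in OCI-Ly18 (median 0.54), with 0 lower in either. With CART19 cells 1 of 6 rose in SU-DHL-4 (median 0.026) and 4 of 7 in OCI-Ly18 (median 0.35), again with 0 lower. STAT5A rose with the drug and UTD cells in SU-DHL-4 (1.24 ± 0.18, adjusted p = 2.00e-07) and OCI-Ly18 (1.53 ± 0.075, adjusted p = 1.23e-15), and STAT5B rose in OCI-Ly18 (0.54 ± 0.051, adjusted p = 1.58e-09) but did not pass in SU-DHL-4 (-0.093 ± 0.055, adjusted p = 0.195). STAT5A and STAT5B are closely similar in sequence, so reads may be split between them and their values are uncertain. STAT4 had 0 counts in SU-DHL-4 DMSO UTD against 33 in OCI-Ly18 DMSO UTD libraries, at least 10.7-fold lower.

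With CART19 cells 0 of the few other SOCS genes tested were called higher, which is near the share of all genes. That share was 6.66% and 4.62% in SU-DHL-4 under tazemetostat and DMSO, and 8.33% and 6.27% in OCI-Ly18. For lower calls it was 7.86% and 3.18% in SU-DHL-4, and 5.05% and 4.75% in OCI-Ly18. Of SOCS2, SOCS4, SOCS5, SOCS6 and SOCS7, 3 were tested in SU-DHL-4 and 4 in OCI-Ly18, and 0 rose in any of the 4 CART19 comparisons, where edgeR's adjusted p called SOCS7 lower in SU-DHL-4 under tazemetostat (-0.29 ± 0.098, adjusted p = 0.042) and SOCS4 lower in OCI-Ly18 under DMSO (-0.22 ± 0.069, adjusted p = 0.0394). Their median was -0.12 and -0.077 in SU-DHL-4 under tazemetostat and DMSO, and -0.016 and -0.20 in OCI-Ly18. With tazemetostat SOCS5 rose in SU-DHL-4 with CART19 (0.92 ± 0.16, adjusted p = 6.81e-06) and UTD cells (0.88 ± 0.16, adjusted p = 1.16e-05), and in OCI-Ly18 with CART19 cells (0.61 ± 0.12, adjusted p = 0.000256). SOCS7 rose with UTD cells in SU-DHL-4 (0.48 ± 0.10, adjusted p = 0.000141) and OCI-Ly18 (0.23 ± 0.077, adjusted p = 0.0295), where SOCS4 fell (-0.43 ± 0.070, adjusted p = 1.91e-05). SOCS6 had 0 counts in SU-DHL-4 DMSO UTD libraries against 742 in those of OCI-Ly18, at least 240-fold lower.

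Of 17 other receptors that signal through JAKs, 14 were tested in SU-DHL-4 and 15 in OCI-Ly18. With CART19 cells in SU-DHL-4, 2 of 14 rose under tazemetostat, beside 6.66% of all genes, and 3 under DMSO, beside 4.62%, with 0 lower. In OCI-Ly18 4 of 15 rose and 1 fell under tazemetostat, beside 8.33% and 5.05%, and 2 rose and 2 fell under DMSO, beside 6.27% and 4.75%. IL12RB1 rose under DMSO in SU-DHL-4 (0.66 ± 0.086, adjusted p = 7.37e-08) and OCI-Ly18 (2.65 ± 0.22, adjusted p = 4.48e-11). IL15RA, the chain that presents interleukin 15, had 35 counts in SU-DHL-4 DMSO CART19 against 0 in DMSO UTD libraries, at least 11.5-fold higher, and rose in OCI-Ly18 (2.31 ± 0.18, adjusted p = 7.03e-12). IL6ST rose in SU-DHL-4 (0.96 ± 0.24, adjusted p = 0.0051), and IL7R fell in OCI-Ly18 (-1.06 ± 0.060, adjusted p = 1.70e-15). With tazemetostat and UTD cells 5 of 14 rose and 0 fell in SU-DHL-4, beside 17.2% and 18.3% of all genes, and 3 of 15 rose and 3 fell in OCI-Ly18, beside 11.6% and 12.7%. With tazemetostat and CART19 cells 2 rose and 0 fell in SU-DHL-4, beside 16.1% and 18.7%, and 4 rose and 2 fell in OCI-Ly18, beside 11% and 10.6%. IL4R rose with the drug in SU-DHL-4 with CART19 (0.67 ± 0.054, adjusted p = 1.18e-13) and UTD cells (0.65 ± 0.053, adjusted p = 1.31e-13). IL2RA had 52 counts in SU-DHL-4 TAZ UTD against 1 in DMSO UTD libraries, a ratio of 50.2 with a 95% counting interval of 8.62 to 2020. IL21R fell with the drug and UTD cells in OCI-Ly18 (-1.57 ± 0.25, adjusted p = 1.26e-05) and rose slightly in SU-DHL-4 (0.20 ± 0.065, adjusted p = 0.013). The medians of the list were between 0.038 and 0.17 log2 in these 8 comparisons.

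Of 12 other attenuators of the pathway, which were phosphatases, PIAS proteins, the adaptor SH2B3, CUL5 and USP18, 11 were tested in each line. With CART19 cells 2 rose and 1 fell in SU-DHL-4 under tazemetostat, beside 6.66% and 7.86% of all genes, and 1 rose and 0 fell under DMSO, beside 4.62% and 3.18%. In OCI-Ly18 5 rose under tazemetostat, beside 8.33%, and 2 under DMSO, beside 6.27%, with 0 lower. PTPN6, the phosphatase SHP-1, rose in OCI-Ly18 under tazemetostat (1.65 ± 0.22, adjusted p = 1.89e-06) and DMSO (1.63 ± 0.27, adjusted p = 5.79e-05), and also with the drug and UTD cells (1.49 ± 0.27, adjusted p = 0.000117). In SU-DHL-4 it gave 0.029 ± 0.059, adjusted p = 0.867 with CART19 cells under DMSO, from a far higher level of 113 CPM in SU-DHL-4 DMSO UTD against 1.84 CPM in OCI-Ly18 DMSO UTD libraries. SH2B3, the adaptor LNK that restrains JAK2, rose with CART19 cells under DMSO in SU-DHL-4 (0.32 ± 0.068, adjusted p = 0.0007) and OCI-Ly18 (0.47 ± 0.089, adjusted p = 0.000309), and fell with tazemetostat in SU-DHL-4 with CART19 cells (-0.44 ± 0.068, adjusted p = 1.48e-06) and UTD cells (-0.31 ± 0.070, adjusted p = 0.00036). With tazemetostat in SU-DHL-4, 0 of 11 were higher and 4 lower with CART19 cells, beside 16.1% and 18.7% of all genes, and 3 higher and 3 lower with UTD cells, beside 17.2% and 18.3%. In OCI-Ly18 3 were higher and 1 lower with CART19 cells, beside 11% and 10.6%, and 2 higher and 2 lower with UTD cells, beside 11.6% and 12.7%. PTPN11, the phosphatase SHP-2, fell in SU-DHL-4 with CART19 (-0.32 ± 0.047, adjusted p = 3.10e-07) and UTD cells (-0.30 ± 0.047, adjusted p = 1.04e-06). The medians of the list lay between -0.095 and 0.17 log2.

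Of 16 genes known as interferon gamma targets 14 were tested in each line, and most rose with CART19 cells. In SU-DHL-4 11 of 14 rose under tazemetostat, beside 6.66% of all genes, and 12 under DMSO, beside 4.62%. The medians were 3.85 and 4.53, the latter 3.48 with the 4 genes at 0 in UTD libraries set at their lower bound. In OCI-Ly18 14 of 14 rose under tazemetostat, beside 8.33% (median 2.93), and 12 under DMSO, beside 6.27% (median 3.06). In SU-DHL-4 0 fell, beside 7.86% under tazemetostat and 3.18% under DMSO. In OCI-Ly18 0 fell, beside 5.05% and 4.75%. GBP1, a guanylate binding protein, rose under DMSO in SU-DHL-4 (9.26 ± 0.17, adjusted p = 9.97e-40) and OCI-Ly18 (8.56 ± 0.10, adjusted p = 4.99e-35). GBP4 had 1468 counts in SU-DHL-4 DMSO CART19 against 0 in DMSO UTD libraries, at least 482-fold higher. The chemokines CXCL9 and CXCL10 were at 0 counts in the UTD groups and had 81 and 162 counts in SU-DHL-4 TAZ CART19, 39 and 61 in SU-DHL-4 DMSO CART19, 216 and 228 in OCI-Ly18 TAZ CART19 and 81 and 72 in OCI-Ly18 DMSO CART19 libraries. TAP1, the peptide transporter, rose under DMSO in SU-DHL-4 (4.92 ± 0.061, adjusted p = 1.96e-46) and OCI-Ly18 (3.23 ± 0.054, adjusted p = 1.43e-30). With tazemetostat in SU-DHL-4, 3 of 14 rose and 4 fell with CART19 cells, beside 16.1% and 18.7% of all genes, and 4 rose and 0 fell with UTD cells, beside 17.2% and 18.3%. In OCI-Ly18 5 of 14 rose and 1 fell with CART19 cells, beside 11% and 10.6%, and 3 rose and 2 fell with UTD cells, beside 11.6% and 12.7%. The medians were 0.26 and 0.073 in SU-DHL-4 with CART19 and UTD cells, and 0.12 and 0.027 in OCI-Ly18. The UTD medians include genes at 0 counts in both groups, 4 in SU-DHL-4 and 3 in OCI-Ly18. Without those genes the UTD medians were 0.38 and 0.14.

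As with SOCS1 and STAT3, the CART19 rise of TAP1 (-0.63 ± 0.083, adjusted p = 5.94e-06) and NLRC5 (-1.21 ± 0.12, adjusted p = 1.86e-08) in SU-DHL-4 was smaller under tazemetostat as a ratio. From UTD to CART19 cells NLRC5 went from 20.4 to 269 CPM under tazemetostat and from 6.33 to 192 CPM under DMSO. TAP1 went from 24.3 to 473 CPM under tazemetostat and from 17.85 to 534 CPM under DMSO. Both were among the target genes that rose with the drug and UTD cells. TAP1 rose by 0.43 ± 0.069, adjusted p = 2.52e-06 and NLRC5, the activator of MHC class I genes, by 1.67 ± 0.11, adjusted p = 2.27e-16. The other 12 target genes tested gave no called difference there. In OCI-Ly18 TAP1 also rose less under tazemetostat (-0.32 ± 0.072, adjusted p = 0.0327) and IRF8 more (0.29 ± 0.068, adjusted p = 0.042).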

How the data were processed

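RNA of 24 libraries, 3 in each of 8 groups, was read from the gene count table that the authors deposited, which holds whole-number counts per gene for 58735 genes. Per the submitters' processing notes the build was hg38 and DESeq2 was used, with no version given; no source used here gives the aligner, counter, annotation release or strand setting. Columns were matched to samples by the names in the deposited sheet, 27 gene names that had become dates were restored from gene IDs, and rows naming no gene numbered 0. Libraries with 14783781 to 20148891 counts were compared in 24 within-group pairs, and none repeated another within counting noise. Each line was fitted on its own with 4 groups (SU-DHL-4 14861 genes, OCI-Ly18 16467 genes), and both together with 8 groups (17766 genes) for differences between lines, after filterByExpr and TMM scaling, with glmQLFit and glmQLFTest in edgeR 4.0.16 (limma 3.58.1, R 4.3.3). P-values were Benjamini-Hochberg adjusted over all genes tested, with a threshold of 0.05. No covariate was used. Intervals, and floors of 3 counts, cover counting error only.

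Levels are CPM. Levels per kb divide CPM by the gene length that the deposited table gives. The alternatives tried were scaling by RLE or by upper quartiles, leaving out the filter or asking for a mean of 20 counts with 1 CPM or more throughout 1 group, DESeq2 1.42.0, a replicate block, fits of all 24 libraries or of only the groups compared, and leaving out each library. The scripts were tested on simulated data. The 9 genes and all pathway lists were chosen with earlier results of these data known. Named were the 9 genes in every comparison and at most 4 called genes per pathway list and comparison, by absolute log2 fold change, and the 3 protein coding genes most like each of the 7 tested by Pearson's r (log2 CPM with a prior count of 2, genes with at least 5 CPM in 1 group). Some genes picked by this rule are not reported here. Genes set beside them for contrast (STAT5B, SOCS4 and SH2B3 among them) and the overlapping genes were chosen after their values were seen. Promoters of 250 bases came from RefSeq (GRCh38.p14), and motifs were searched on both strands. Figures were drawn with matplotlib 3.10.9 and pandas 2.3.3 in Python 3.11.15.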

Additional observations from a re-analysis of the deposited data

Results flagged for a closer look

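The drug and CART19 effects on some genes differed between conditions of a line or between the lines, by edgeR's quasi-likelihood test of the difference itself. In SU-DHL-4 the CART19 effect under tazemetostat minus that under DMSO was -0.88 ± 0.13 log2 for SOCS1 (adjusted p = 3.14e-05) and -0.65 ± 0.099 for STAT3 (adjusted p = 5.88e-05), with 3 libraries in each of the 4 groups.

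As the effect in SU-DHL-4 minus that in OCI-Ly18, tazemetostat with UTD cells gave 1.03 ± 0.13 for SOCS1 (adjusted p = 6.29e-08), 0.61 ± 0.084 for STAT2 (adjusted p = 5.77e-07) and 0.32 ± 0.1 for STAT3 (adjusted p = 0.0305). Tazemetostat with CART19 cells gave 0.61 ± 0.077 for STAT2 (adjusted p = 1.21e-07) and -0.51 ± 0.16 for IFNGR1 (adjusted p = 0.0367). CART19 under tazemetostat gave 0.55 ± 0.079 for STAT2 (adjusted p = 3.02e-06) and -0.67 ± 0.16 for IFNGR1 (adjusted p = 0.00584). CART19 under DMSO gave 0.67 ± 0.12 for SOCS1 (adjusted p = 0.000444) and 0.55 ± 0.081 for STAT2 (adjusted p = 9.27e-06). STAT2 differed between the lines in all 4 contrasts, which share libraries. The STAT3 call for tazemetostat with UTD cells was lost when any of 17 of the 24 libraries was left out. It was also lost without the filter on low counts and with the stricter filter. The IFNGR1 call for tazemetostat with CART19 cells was lost when any of 4 libraries was left out. Upper quartile scaling and the replicate block ended it too.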

How the results depend on the processing

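The 105 results of 7 genes in 15 comparisons were recomputed under 2443 alternatives. Of 53 called results 45 held under every alternative run and 0 changed direction. Calls that were lost, and the library or setting that ended them, stand beside their values above; the cause was not tested. The count of genes called moved by more than 1.5 times in 2 of the 15 comparisons, and by at most 1 gene in the others. In the OCI-Ly18 interaction 0 genes were called, and 0 to 1 over the left-out libraries. In the line difference in tazemetostat with CART19 cells 2 were called, 1 with the replicate block and 1 to 2 over the left-out libraries.

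Uncalled values near 0 changed sign. JAK2 in the line difference in tazemetostat with CART19 cells was -0.014 with RLE scaling, -0.00019 with no filter, -0.0071 with the stricter filter and -0.014 with DESeq2, and -0.15 to 0.11 over the left-out libraries. JAK2 in the line difference in CART19 under tazemetostat was -0.0011 with RLE scaling, -0.0011 with DESeq2 and -0.00074 with the replicate block, and -0.10 to 0.12 over the left-out libraries. IFNGR2 in the baseline line difference was 0.0047 with no filter and -0.10 to 0.077 over the left-out libraries. Over the left-out libraries alone, signs changed for IFNGR1 in OCI-Ly18 for tazemetostat with UTD cells (-0.022 to 0.24) and CART19 under DMSO (-0.058 to 0.22) and in the SU-DHL-4 interaction (-0.13 to 0.034), for IFNGR2 with CART19 under tazemetostat in OCI-Ly18 (-0.10 to 0.046) and SU-DHL-4 (-0.0083 to 0.16) and in the line difference in tazemetostat with CART19 cells (-0.22 to 0.011), for JAK1 with CART19 under tazemetostat in OCI-Ly18 (-0.013 to 0.087) and in the line difference in tazemetostat with CART19 cells (-0.034 to 0.15), and for JAK2 in the OCI-Ly18 interaction (-0.14 to 0.067).

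Over all genes the OCI-Ly18 interaction had 69 calls, 306 with no filter, 226 with DESeq2, 25 with the replicate block, 126 with all 24 libraries in one fit and 15 to 982 over the left-out libraries. The SU-DHL-4 interaction had 133, 266 with DESeq2, 63 with all 24 libraries and 37 to 414 over the left-out libraries, where the share of higher calls ran between 22.7% and 57.1%, against 30.1% with every library. CART19 under DMSO in OCI-Ly18 had 1815 calls, and 1187, 1206 and 1199 without OCI-Ly18 DMSO UTD replicate 2 and DMSO CART19 replicates 1 and 3. The replicate numbers of the authors' sheet did not pair the libraries: same-numbered libraries correlated at -0.0441 to 0.0228 in SU-DHL-4 and -0.0548 to 0.0355 in OCI-Ly18, and 3 of 12 and 2 of 12 correlated best with their own number. With the replicate block 1 call of the 53 was lost, that of IFNGR1 in the line difference in tazemetostat with CART19 cells. Depth limits SOCS3 and CISH, for which a count of 0 allows up to 0.149 to 0.203 CPM.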
